A study of Homo sapiens with 15 samples.

Results

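The mRNAs of 5 proteins that hold back translation at the 5′ cap were followed in human HEK293 cells in which the RNA-binding proteins ZC3H7A and ZC3H7B had been added or removed. The genes are GIGYF1, GIGYF2, EIF4E2 (whose protein is usually called 4EHP), EIF4ENIF1 (4E-T) and DDX6, taken by name from a table of 55773 genes. All 5 were present and all 5 passed the filter on low values in every comparison. RNA of 15 libraries was sequenced, 3 in each of 5 groups. Control, ZC3H7A and ZC3H7B cells were Flag/HA-tagged lines given 1 µg/mL doxycycline for 24 h. The first carried the tag alone, and the others carried the tagged protein they are named after. Polyadenylated RNA of these 9 libraries came from a hypotonic polysome lysate, before any gradient, of 3 independent replicates per group. Parental cells were wild type with a control shRNA, and DD (double depletion) cells lacked ZC3H7A by knockout and carried an shRNA against ZC3H7B. Cells of both these groups were selected with 5 µg/mL puromycin until 2 passages before collection. The sources used here do not state whether the 3 Parental and 3 DD libraries came from separate cultures, or whether each line is a single clone, so p-values measure the spread between these libraries, which may be technical.

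GIGYF1 and GIGYF2 are scaffold proteins that carry a motif by which they hold 4EHP. 4EHP binds the mRNA cap but cannot recruit the initiation factor eIF4G, so an mRNA that it occupies is translated less. RNA-binding proteins, the microRNA machinery and the sensors of collided ribosomes bring this complex to chosen mRNAs, and DDX6, a DEAD-box RNA helicase, acts with it in repression and decay. 4E-T is another protein that holds eIF4E or 4EHP, and it links them to DDX6 and the deadenylation machinery.

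The study's title asks about codons, so the coding stretch at the functional motif of each protein is shown, with codons that end in A or T in capitals. Sequences are the longest complete coding sequences of GENCODE 29 transcripts (GRCh38), 18 codons each, 5′ to 3′, beginning 4 codons before the motif where there is one.

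GIGYF1: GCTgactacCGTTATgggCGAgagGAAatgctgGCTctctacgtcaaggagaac
GIGYF2: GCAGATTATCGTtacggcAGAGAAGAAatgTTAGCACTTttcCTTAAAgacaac
EIF4ENIF1: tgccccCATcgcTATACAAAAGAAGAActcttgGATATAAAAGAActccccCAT
DDX6: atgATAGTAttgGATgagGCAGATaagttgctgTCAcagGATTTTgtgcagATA
EIF4E2: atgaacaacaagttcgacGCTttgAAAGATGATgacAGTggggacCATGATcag

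The first 3 stretches hold the 4E-binding motif, the fourth holds the DEAD box, and EIF4E2, which is itself the bound partner, is shown from its start codon. The paralogs GIGYF1 and GIGYF2 carry the motif in stretches that differ in codons. Over the 18 codons shown, which are the motif and its flanks together, 6 end in A or T in GIGYF1 and 12 in GIGYF2. The 4E-binding stretch of EIF4ENIF1 holds 11 such codons and the DEAD-box stretch of DDX6 holds 9. Over the whole coding sequence, 24.7% of the 1035 codons of GIGYF1 end in A or T, against 55.8% of the 1321 codons of GIGYF2. The share was 40.8% in EIF4E2 (245 codons), 52.8% in EIF4ENIF1 (985 codons) and 55.1% in DDX6 (483 codons). Among 18993 genes with a coding sequence the median was 39.3%, so GIGYF1 lay below it, at percentile 21.7, and GIGYF2 above it, at percentile 78.4.

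The libraries held 45.48 to 57.58 M reads in control, ZC3H7A and ZC3H7B and 12.21 to 15.5 M in Parental and DD, and a member was covered by 550 to 8766 reads per library. Values are reads after the authors' scaling between libraries, called normalized reads here. RMRP, RPPH1, RN7SK, RN7SL1 and RN7SL2, which are small RNAs that code for no protein, together made up 5.6% to 6.58% of a Parental or DD library but 0.000724% to 0.00539% of any other library. The labels name poly(A) RNA only for the overexpression experiment and give another library preparation for Parental and DD, so the groups were compared only within each experiment. ZC3H7A mRNA stood at 10131 to 12898 normalized reads in the ZC3H7A libraries against 3179.5 to 3374 in control. ZC3H7B stood at 26632 to 28082 in the ZC3H7B libraries against 5818 to 6044 in control, and at 999.8 to 1168 in DD against 5948 to 6958 in Parental. Each overexpression also differed from control in the other gene. ZC3H7A mRNA was lower in the ZC3H7B libraries (1935 to 2113), and ZC3H7B mRNA was higher in the ZC3H7A libraries (7390 to 8288). ZC3H7A mRNA was not lower in DD (1561 to 1771.5) than in Parental (1528.5 to 1684), and the level of a whole gene does not show whether a knockout removed the protein. ZC3H7A replicate 3 and Parental replicate 3 stood apart from the other libraries of their groups. Their read counts differed from those of the other replicates by a chi-square per degree of freedom of 11.1 to 23, whereas other pairs of a group lay between 1.8 and 8.54.

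HEK293 markers (NEFL, NEFM, INA, PAX2 and UCHL1) summed to 14633 to 30058 normalized reads across the groups. In Parental and DD only 4 of the 5 had a mean of at least 10, since NEFM stood at 0 to 4.93 and 1.89 to 12.6 there. Sums for markers of other tissues were far lower: fibroblast genes summed to at most 20.1, leukocyte genes to 20.6 to 103, the 2 endothelial genes measured to at most 13.3 and keratin genes to at most 6.88. CD3E and PTPRC were at 0 in Parental and DD, and all 3 keratin genes were at 0 there. In bulk RNA, fewer cells of a type and less RNA per cell cannot be told apart.

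The members did not move as one unit in any comparison. In ZC3H7A cells GIGYF2 and GIGYF1 were lower and EIF4ENIF1 higher than in control; EIF4E2 and DDX6 did not pass the test. In ZC3H7B cells EIF4E2 and EIF4ENIF1 were higher by 33.9% and 20.8%, and GIGYF2 by 6.7%. In DD cells EIF4E2 was lower and DDX6 higher than in Parental. Between the 2 overexpressions, GIGYF2 and EIF4E2 were both lower with ZC3H7A than with ZC3H7B. Counted with limma at a Benjamini-Hochberg adjusted p under 0.05, 3 of 5 members passed against control with ZC3H7A, 1 higher and 2 lower, where 75.9% of 17673 tested genes did (34.7% higher and 41.2% lower). The other counts were 3 of 5 with ZC3H7B, all higher (69.6% of genes passed, 32.0% higher and 37.6% lower), 2 of 5 between the overexpressions, both lower (44.3%, with 23.9% higher and 20.4% lower), and 2 of 5 in DD against Parental, 1 each way (29.5% of 18494 genes, with 14.7% higher and 14.8% lower). With only 5 members, these counts are too few to set against the shares of all genes, in total or by direction. They say nothing particular of the members, and the values of each are what follows. The median log2 fold change of the 5 members was -0.07, 0.09, -0.07 and 0.05 in these 4 comparisons, beside -0.07, -0.06, 0.01 and 0.01 over all genes tested. The libraries of the 2 groups did not overlap for 4, 4, 3 and 2 members, where this held for 77.9%, 77.1%, 49.2% and 43.0% of all genes.

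**Figure D1:**
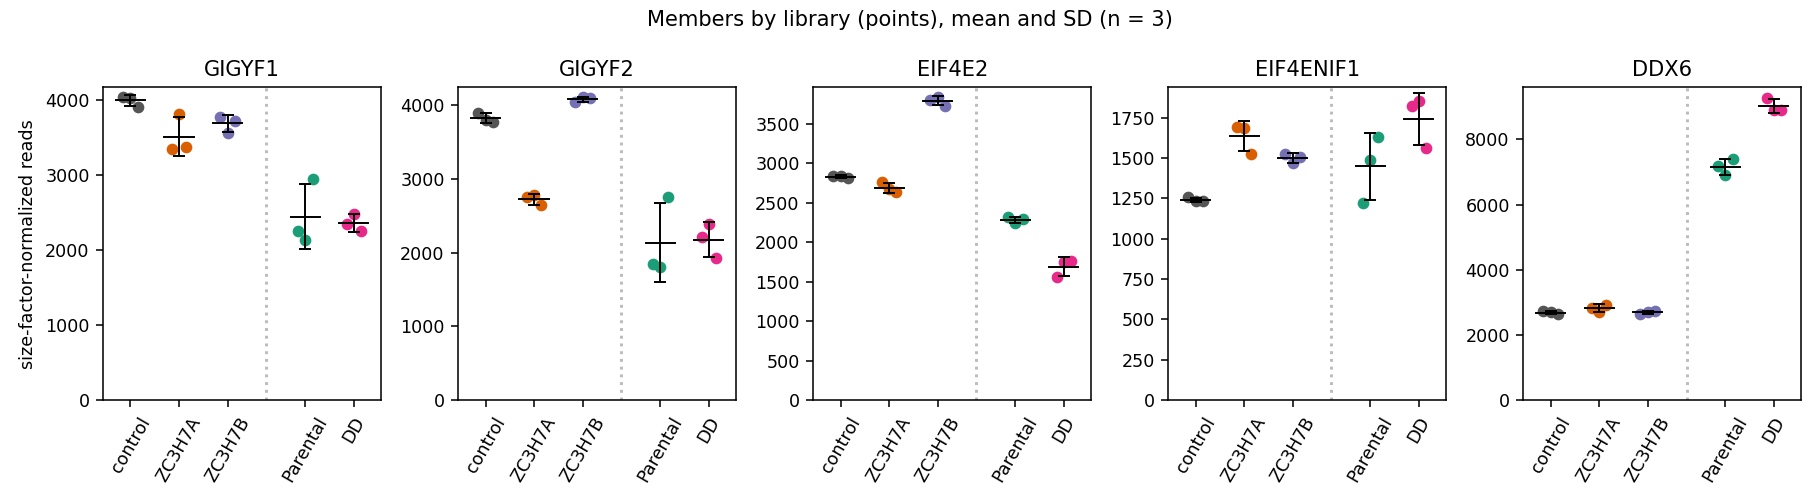
Normalized reads of GIGYF1, GIGYF2, EIF4E2, EIF4ENIF1 and DDX6 (y axis, from 0, with its own range for each gene) in each library (points) by group (x axis), with the mean and SD of 3 libraries; the dotted line parts the experiments, whose levels are not comparable. The 3 ZC3H7A libraries of GIGYF2 (2639.9 to 2781) lie under every control and ZC3H7B library, and the 3 ZC3H7B libraries of EIF4E2 (3729.9 to 3841) lie above every other.

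GIGYF2, the scaffold that newborn mice need to survive, had 3898, 3803 and 3770 normalized reads in the control libraries, 2752, 2781 and 2639.9 with ZC3H7A and 4039, 4104.5 and 4095 with ZC3H7B. All ZC3H7A libraries lay below all control libraries, and all ZC3H7B libraries lay slightly above them. The means were 3824 ± 66.7, 2724 ± 74.6 and 4079.6 ± 35.5 (SD, n = 3). GIGYF2 fell by 28.8% with ZC3H7A (a log2 fold change of -0.49, SE 0.0378, limma adjusted p = 2.38e-07), and its level with ZC3H7A differed from that with ZC3H7B by -33.2% (-0.58, SE 0.0378, adjusted p = 2.3e-07). The small rise with ZC3H7B (0.09, SE 0.0378, limma adjusted p = 0.0429) lost its call when any 1 of the 6 control and ZC3H7B libraries was left out, with an adjusted p of 0.052 to 0.134 in limma.

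In the depletion experiment GIGYF2 stood at 1841, 1807 and 2760.2 in Parental and at 2216, 2388 and 1927 in DD, so the groups overlapped and Parental replicate 3 was the highest of the 6. The difference was 0.05 on the log2 scale (95% interval -0.26 to 0.36, limma adjusted p = 0.825). Without Parental replicate 3 it was 0.25, with an adjusted p of 0.0194 in limma, so that library decides whether GIGYF2 is called.

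GIGYF1, the paralog with few codons ending in A or T, had 4045, 4027 and 3912 normalized reads in the tag-only control, 3346, 3809 and 3371 under ZC3H7A and 3778, 3563 and 3723 under ZC3H7B. Every overexpression library lay below every control library, and the ZC3H7A and ZC3H7B libraries overlapped. The means were 3995 ± 71.8, 3509 ± 261 and 3688 ± 112 (SD, n = 3). GIGYF1 fell by 12.3% with ZC3H7A (-0.19 in log2, SE 0.0517, limma adjusted p = 0.0052), a call that DESeq2 did not make (-0.13, adjusted p = 0.0523). With ZC3H7B the difference was -0.12 (95% interval -0.23 to -0.0027, limma adjusted p = 0.0639).

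Between the overexpressions GIGYF1 differed by -0.07 (95% interval -0.19 to 0.04, limma adjusted p = 0.271), and without ZC3H7A replicate 2 by -0.13 (adjusted p = 0.0267). The Parental libraries of GIGYF1 stood at 2251, 2139.9 and 2948, again with replicate 3 highest, and the DD libraries at 2348, 2480.5 and 2254, inside the Parental range. The difference was -0.04 (95% interval -0.27 to 0.20, limma adjusted p = 0.825). It was 0.10 without Parental replicate 3, with an adjusted p of 0.259.

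EIF4E2 encodes 4EHP, the cap-binding protein of the complex. Its control libraries had 2845, 2833 and 2814 normalized reads, its ZC3H7A libraries 2762, 2675 and 2636, and its ZC3H7B libraries 3804.5, 3841 and 3729.9. The ZC3H7B libraries stood clear of the rest, and the ZC3H7A libraries lay just under the control libraries without overlap. The means were 2831 ± 15.5, 2691 ± 64.5 and 3792 ± 56.8 (SD, n = 3). EIF4E2 rose with ZC3H7B by 33.9% (0.42 in log2, SE 0.0372, limma adjusted p = 1.11e-06). With ZC3H7A the difference from control was -0.07 (95% interval -0.15 to 0.01, limma adjusted p = 0.092). The direct difference between the overexpressions was -0.49 (SE 0.0372, limma adjusted p = 7.91e-07).

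Depletion gave the opposite order to ZC3H7B overexpression for this gene, and its neighbours on chromosome 2 leaned the same ways. Of the 30 genes nearest to EIF4E2, a window described below, 16 were higher and 8 lower with ZC3H7B. Of all genes, 32.0% were higher and 37.6% lower there. In DD 0 of the 30 were higher and 14 lower, where 14.7% of all genes were higher and 14.8% lower. EIF4E2 stood at 2314, 2240.9 and 2298 in Parental and at 1557, 1756 and 1765 in DD, and every DD library was below every Parental library. It fell by 26% (means 2284 ± 38.3 and 1692 ± 118, -0.43 in log2, SE 0.0735, limma adjusted p = 0.001). Of EIF4E2's exon bases, 16.6% are shared with an antisense gene, AC073254.1, and 7.5% with TIGD1 on the opposite strand. The sources used here do not say whether reads were counted by strand, so reads of those genes cannot be told apart from EIF4E2's there. AC073254.1 stood at a mean of 24.4 in control and TIGD1 at 412, and TIGD1 fell by 0.67 on the log2 scale with ZC3H7B (limma adjusted p = 6.31e-06). In DD TIGD1 was lower than in Parental, like EIF4E2 (-0.38, limma adjusted p = 0.0332).

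EIF4ENIF1 encodes 4E-T, a component of processing bodies, the cytoplasmic granules of repressed mRNAs. Its normalized reads were 1256, 1233 and 1231 in the tag-only control, 1691, 1688 and 1525 under ZC3H7A and 1523, 1465.5 and 1507 under ZC3H7B. Every library of both overexpressions was above every control library. The means were 1240 ± 14.2, 1635 ± 95.2 and 1499 ± 29.8 (SD, n = 3). It rose by 31.7% with ZC3H7A (0.40 in log2, SE 0.0490, limma adjusted p = 1.22e-05) and by 20.8% with ZC3H7B (0.27, SE 0.0490, adjusted p = 0.000331). The difference between the 2, 0.12 (95% interval 0.02 to 0.23), did not pass (limma adjusted p = 0.0583), and it passed without ZC3H7A replicate 3 (0.17, adjusted p = 0.00131).

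In Parental the gene stood at 1221, 1489 and 1632, and in DD at 1819.8, 1850.3 and 1559. One DD library lay inside the Parental range. The means were 1447 ± 208 and 1743 ± 160 (SD, n = 3), and the difference of 0.27 (95% interval 0.04 to 0.51) had an adjusted p of 0.0774 in limma. Without Parental replicate 3 it was 0.37 (adjusted p = 0.00337).

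DDX6, the helicase that acts downstream of the scaffolds, did not pass the limma test with either overexpression. Control libraries had 2736, 2691 and 2635 normalized reads, ZC3H7A libraries 2833, 2693.5 and 2932.5, and ZC3H7B libraries 2642, 2703 and 2739, with overlap between all groups. The difference was 0.07 with ZC3H7A (95% interval -0.02 to 0.16, limma adjusted p = 0.16) and 0.0039 with ZC3H7B (95% interval -0.09 to 0.10, limma adjusted p = 0.94). In DESeq2 the ZC3H7A difference was 0.12 and passed (adjusted p = 0.026). With depletion DDX6 rose. It stood at 7176, 6905 and 7398 in Parental and at 9267.5, 8901 and 8904 in DD, without overlap, a rise of 26.1% (means 7159.9 ± 247 and 9024 ± 211, 0.33 in log2, SE 0.0609, limma adjusted p = 0.00164).

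**Figure D2:**
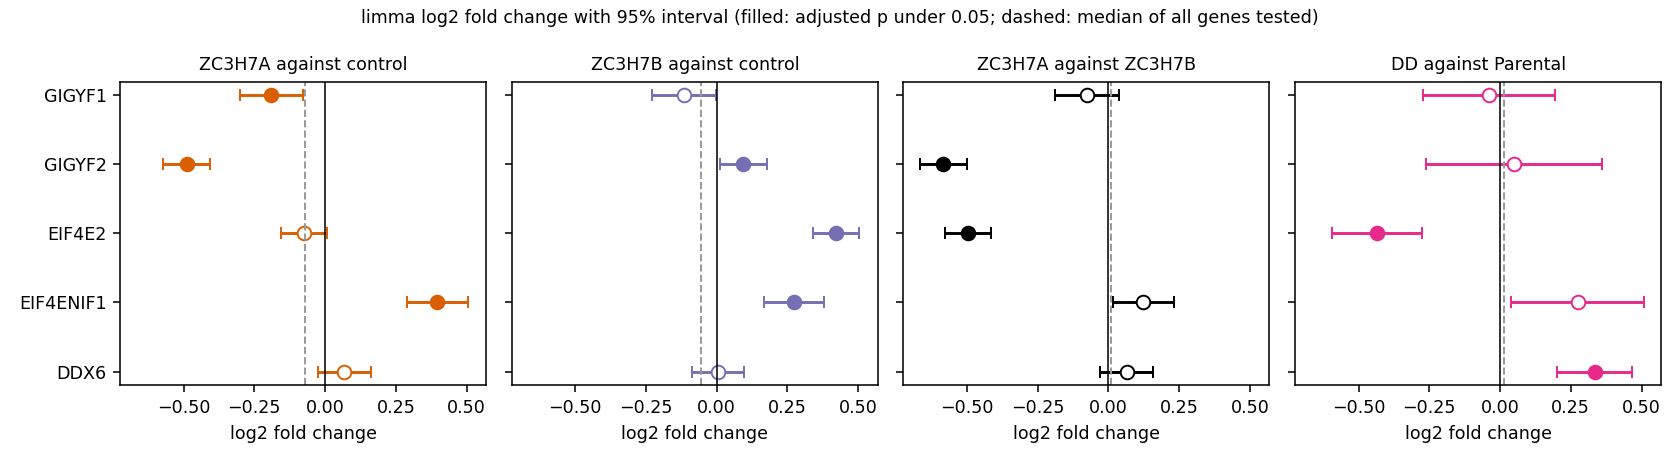
The log2 fold change of each member (x axis) in the 4 comparisons (panels), with its 95% interval from limma; filled points have an adjusted p under 0.05 and the dashed line is the median of all genes tested. GIGYF2 (-0.49) and EIF4ENIF1 (0.40) lie on opposite sides in ZC3H7A against control, and GIGYF2 (-0.58) and EIF4E2 (-0.49) lie together in ZC3H7A against ZC3H7B.

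Ratios within a library do not depend on how libraries were scaled. The log2 ratio of GIGYF2 to GIGYF1 averaged -0.06 ± 0.0169 in control, -0.36 ± 0.0863 with ZC3H7A and 0.15 ± 0.0543 with ZC3H7B (SD, n = 3), and the 3 groups did not overlap. Each of the 3 differences, -0.30 for ZC3H7A against control, 0.21 for ZC3H7B against control and -0.51 between the overexpressions, gave p = 0.1 in a two-sided exact permutation test, the smallest p that 3 libraries against 3 allow. In DD against Parental the ratio differed by 0.09, with overlap (exact permutation p = 0.2). The 2 genes differ in transcript A+T (54% in GIGYF2, 39.2% in GIGYF1), with which fold changes moved, as given below. With that trend removed, GIGYF2 stood at -0.42 and GIGYF1 at -0.54 in ZC3H7A against control, the reverse order. The order was kept in ZC3H7B against control and between the overexpressions. The ratio itself was not recomputed.

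The repressive cap-binding protein 4EHP was set against eIF4E, the factor that starts translation, in the same way. EIF4E itself fell in both overexpressions, at -0.29 in log2 with ZC3H7A (SE 0.0943, limma adjusted p = 0.0135) and -0.30 with ZC3H7B (adjusted p = 0.0141). Its ZC3H7A libraries (499.5 to 681) overlapped its control libraries (678.3 to 738.9). Transcript A+T was 56.8% in EIF4E and 47.2% in EIF4E2, and this ratio too was not recomputed with the A+T trend removed. The log2 ratio of EIF4E2 to EIF4E was 1.98 ± 0.0732 in control, 2.20 ± 0.236 with ZC3H7A and 2.702 ± 0.106 with ZC3H7B (SD, n = 3). The ZC3H7B libraries lay above all others, a difference from control of 0.72 (exact permutation p = 0.1), while the ZC3H7A libraries overlapped control (0.22, exact permutation p = 0.3). In the depletion experiment the ratio was 0.71 ± 0.11 in Parental and 0.50 ± 0.0694 in DD, without overlap (difference -0.21, exact permutation p = 0.1). These 8 comparisons of ratios were not adjusted, since none could pass the threshold.

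**Figure D3:**
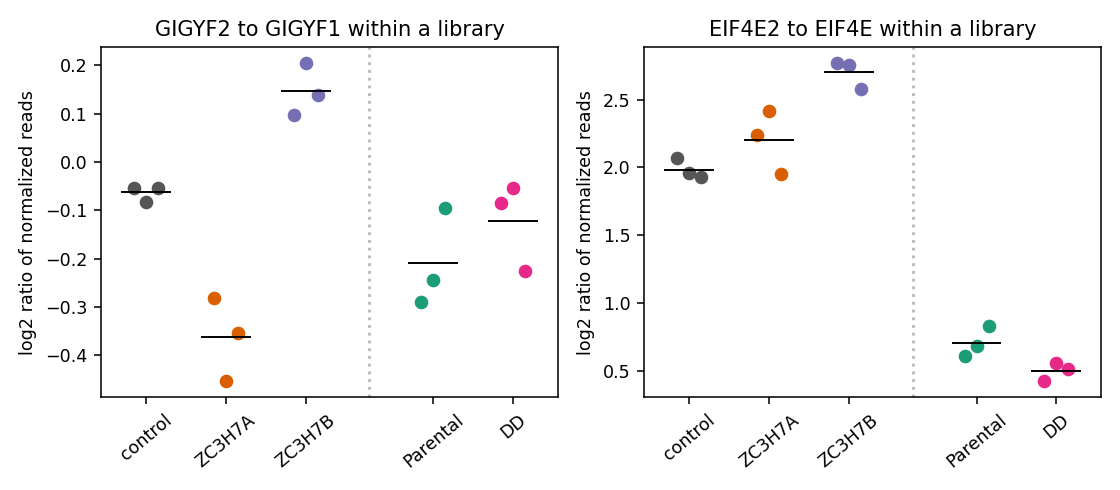
The log2 ratio of normalized reads within each library (y axis; points, with the group mean as a line) for GIGYF2 to GIGYF1 and for EIF4E2 to EIF4E, by group (x axis); the dotted line parts the experiments. GIGYF2 to GIGYF1 was lowest with ZC3H7A (mean -0.36) and highest with ZC3H7B (0.15), and EIF4E2 to EIF4E was highest with ZC3H7B (2.702).

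Levels were compared between members only per kilobase. Per kilobase of all annotated exons, GIGYF1 was highest in control (577.5 ± 10.4 normalized reads), followed by EIF4E2 (394 ± 2.16), GIGYF2 (285 ± 4.97), DDX6 (235 ± 4.43) and EIF4ENIF1 (204 ± 2.34; SD, n = 3). No neighbours in this order overlapped within 1 SD. Per kilobase of the single longest-coding transcript, EIF4E2 came first instead (1765 ± 9.65) and GIGYF1 next (612 ± 11), so the place of EIF4E2 depends on the length used. In Parental, DDX6 was highest per kilobase of all exons (626 ± 21.6), but EIF4E2 came first per kilobase of transcript (1424 ± 23.9 against 1164 ± 40.1 for DDX6). By all exons, GIGYF1 (354 ± 63.3) and EIF4E2 (318 ± 5.34) were within 1 SD of each other, and EIF4ENIF1 (238 ± 34.3) and GIGYF2 (159 ± 40.3) were lower. The order in control and that in Parental come from different library preparations, whose part in the difference cannot be told apart from that of the cells.

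Base content moved with the fold changes of both overexpressions. Across 13595 genes, which are not independent replicates, the Spearman correlation of the log2 fold change with the A+T share of the transcript was -0.559 for ZC3H7A and -0.521 for ZC3H7B against control, -0.205 between the overexpressions, and -0.00607 in DD against Parental over 13229 genes. Transcript A+T was 54% in GIGYF2, which fell with ZC3H7A, and 60% in DDX6, which stood at 0.07. With the trend removed in each library, GIGYF2 kept its call with ZC3H7A (-0.42, limma adjusted p = 1.17e-08). GIGYF1, at 39.2% A+T, moved from -0.19 to -0.54 (adjusted p = 1.6e-08, limma), and DDX6 from 0.07 to 0.58 (adjusted p = 4.38e-09). With ZC3H7B, EIF4E2 went from 0.42 to 0.22 (limma adjusted p = 7.94e-06) and EIF4ENIF1 from 0.27 to 0.09 (adjusted p = 0.0203), and DDX6 went from 0.0039 to 0.46 (adjusted p = 8.07e-08).

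GIGYF2 and EIF4E2 are near neighbours on the long arm of chromosome 2, with EFHD1 between them among the genes tested, and their neighbours shared the difference between the overexpressions. EFHD1, which encodes a mitochondrial calcium-binding protein, was lower with ZC3H7A than with ZC3H7B (-0.52 in log2, SE 0.0456, limma adjusted p = 2.76e-06), beside -0.58 for GIGYF2 and -0.49 for EIF4E2. Of the 30 genes nearest to GIGYF2 (15 on each side, with a mean of at least 100 in every group), 29 were lower and 1 higher, with a median of -0.47, whereas 20.4% of all genes were lower in that comparison. The same counts, 29 and 1, held around EIF4E2, whose 30 genes are largely the same ones. Around GIGYF1, EIF4ENIF1 and DDX6, on chromosomes 7, 22 and 11, between 4 and 9 of 30 neighbours were lower. Relative to the median of their neighbours, GIGYF2 differed by -0.11 and EIF4E2 by -0.03 between the overexpressions.

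Along chromosome 2 the running median of 31 genes stayed at or under -0.3 from MRPL44 to D2HGDH, the last gene tested on the chromosome, a run of 71 genes that includes both members. The running median that drew this run was that of ZC3H7A against ZC3H7B. Its low median and high share of lower genes in that comparison therefore follow in part from how it was drawn. This run, and the windows above, were drawn after the values were seen, so their counts are descriptions. With ZC3H7A against ZC3H7B, 64 of the 71 genes were lower (90.1%, median -0.49), against 143 of the other 668 genes of the chromosome (21.4%, median 0.02). In the separate depletion experiment, 38 of the 71 were lower in DD than in Parental (53.5%, median -0.29), against 13.3% of the rest (median 0.04). EIF4E2 was among the 38, and GIGYF2, at 0.05, was not. Against control, 50 of the 71 were lower with ZC3H7A (70.4%, median -0.37), and so were 52.7% of the rest of the chromosome (median -0.17). With ZC3H7B 37 were higher (52.1%, median 0.11), against 28% of the rest (median -0.14). With the A+T trend removed, the latter split into 27 higher and 28 lower of 69.

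Taken as its log2 fold change less the median of its 30 neighbours, EIF4E2 stood at 0.35 with ZC3H7A, 0.32 with ZC3H7B and -0.18 in DD, and GIGYF2 at -0.14 with ZC3H7A and at 0.36 in DD. The count of lower genes in the run was 60 to 64 between the overexpressions when any 1 library was left out. In DD it was 24 to 40, and 24 without DD replicate 1. DNA copy number was not measured in these data, and a difference between the lines along this stretch cannot be told apart from an effect of the proteins expressed or removed.

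**Figure D4:**
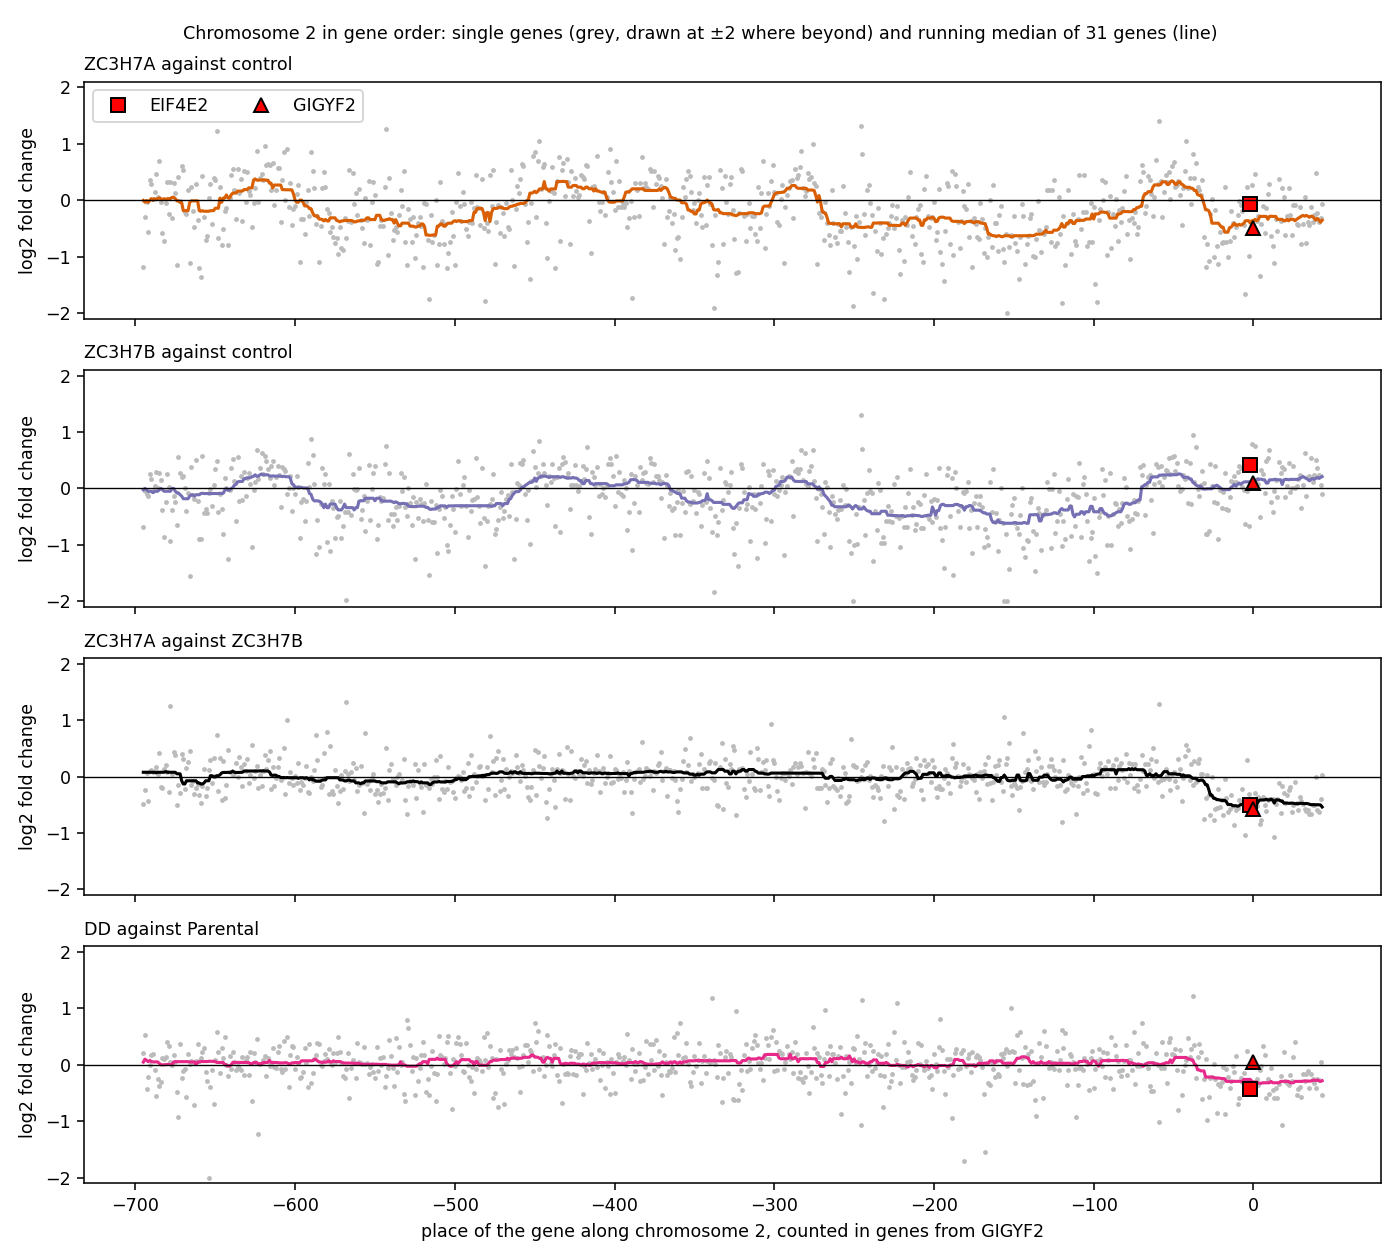
The log2 fold change of 739 genes of chromosome 2 (grey points, those beyond 2 drawn at the edge) in gene order, counted in genes from GIGYF2 (x axis), with the running median of 31 genes as a line, in 4 comparisons (panels); the square is EIF4E2 and the triangle GIGYF2. The line drops and stays low over the last 71 genes with ZC3H7A against ZC3H7B (median -0.49), the comparison from which this stretch was drawn. It is also low there in DD against Parental (-0.29), and not with ZC3H7B against control (0.11).

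The genes around the complex were read from 4 lists: 8 recruiters, 9 cap-binding and initiation factors, 9 partners of DDX6 and 4E-T, and 2 known repressed mRNAs. With ZC3H7A against control, 15 of the 27 tested rose, 10 fell and 2 did not pass, where 34.7% of all genes were higher and 41.2% lower. With ZC3H7B 13 rose, 9 fell and 5 did not pass, where 32.0% of all genes were higher and 37.6% lower. With so many genes called, these counts say little of the lists by themselves. Between the overexpressions 6 were higher, 7 lower and 14 did not pass, where 23.9% of all genes were higher and 20.4% lower. In DD 7 of 26 were higher, 4 lower and 15 did not pass, where 14.7% of all genes were higher and 14.8% lower. The medians of the listed genes were 0.16, 0.09, -0.04 and -0.03, beside those of all genes given above.

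Among the recruiters, 4 of 8 rose and 3 fell with ZC3H7A (median 0.10), where 34.7% of all genes were higher and 41.2% lower. With ZC3H7B 3 rose and 2 fell (median 0.01), where 32.0% of all genes were higher and 37.6% lower. With the A+T trend removed the balance turned, to 2 higher and 5 lower in both overexpressions. EDF1, which senses collided ribosomes and brings GIGYF2 and 4EHP to them, had means of 4572 in control, 7493 with ZC3H7A and 6661 with ZC3H7B. It rose by 0.71 (limma adjusted p = 5.83e-08) and 0.54 (adjusted p = 8.2e-07). ZNF598, the ubiquitin ligase of collided ribosomes and a GIGYF2 partner, rose by 0.33 (limma adjusted p = 0.000194) and 0.46 (adjusted p = 1.86e-05), and with the A+T trend removed its ZC3H7A value turned to -0.08 (adjusted p = 0.0213). TNRC6B, a scaffold of the microRNA machinery, fell with ZC3H7A (-0.62) and with ZC3H7B (-0.41), and TNRC6A fell with ZC3H7A (-0.37). ZFP36L2, a decay factor of AU-rich mRNAs, rose by 0.27 with ZC3H7B, a call lost with the A+T trend removed (0.05).

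In DD, 4 of 8 recruiters were higher and 1 lower than in Parental (median 0.15), where 14.7% of all genes were higher and 14.8% lower. ZFP36 was higher by 0.56, TNRC6A by 0.44 and ZFP36L1 by 0.23, with ZNF598 lower (-0.22). The count of called recruiters there was 5, and it fell to 1 without DD replicate 1, DD replicate 2 or Parental replicate 2, to 2 without DD replicate 3 and to 3 without Parental replicate 1. Between the overexpressions ZFP36 was higher with ZC3H7A (0.30) and TNRC6B lower (-0.21), with EDF1 at 0.17 and TNRC6C at -0.14. The count of 4 of 8 there, where 44.3% of all genes passed, was 1 without ZC3H7B replicate 3.

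All 9 cap-binding and initiation genes passed in both overexpressions, 3 higher and 6 lower in each (medians -0.36 and -0.26), where 75.9% and 69.6% of all genes passed. With the A+T trend removed the balance turned, to 5 higher and 3 lower with ZC3H7A and 4 higher and 3 lower with ZC3H7B. EIF4EBP1, the 4E-binding protein that blocks eIF4E under low mTOR signalling, rose most, from a control mean of 1929 to 5170 with ZC3H7A (log2 fold change 1.42, limma adjusted p = 1.36e-09) and 4154 with ZC3H7B (1.11, adjusted p = 1.43e-08). It was lower in DD (2614) than in Parental (5180.2; -0.98 in log2, limma adjusted p = 2.26e-06). EIF4G3, a paralog of the cap-complex scaffold eIF4G, fell with ZC3H7A from 8474 to 3912 (log2 fold change -1.12, limma adjusted p = 3.53e-09) and was lower there than with ZC3H7B (-0.82).

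EIF4E3, a further cap-binding paralog, fell with ZC3H7A (-0.45) and with ZC3H7B (-0.74). With the A+T trend removed the first turned to 0.29 (limma adjusted p = 0.000176) and the second lost its call (-0.03). EIF4EBP3 fell (-2.27 and -1.19), but from a mean of 14.3 only, and it shares exons with the readthrough gene ANKHD1-EIF4EBP3. EIF4A1 rose by 0.47 with ZC3H7B and likewise shares exons with SENP3-EIF4A1, so both are uncertain. In DD, EIF4EBP2 was higher by 0.23 (limma adjusted p = 0.0196), and 6 of the 8 tested did not pass (median -0.11), where 29.5% of all genes passed. The EIF4EBP2 call was lost without DD replicate 1 (limma adjusted p = 0.0993) or DD replicate 3 (0.0679), which left 1 called gene of the list, and 4 were called without Parental replicate 3.

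Of the partners of DDX6 and 4E-T, 7 of 9 rose and 1 fell with ZC3H7A (median 0.21), and 6 rose and 1 fell with ZC3H7B (median 0.33), where 34.7% and 32.0% of all genes were higher. DCP2, the enzyme that removes the cap, was the one that fell: from 5059 in control to 2494 with ZC3H7A (log2 fold change -1.04, limma adjusted p = 8.82e-06) and to 1842 with ZC3H7B (-1.46, adjusted p = 7.7e-07). EDC4, the scaffold of decapping, rose by 0.56 and 0.55, LSM14B, a processing-body protein that binds DDX6, by 0.47 and 0.56, and PATL1, which bridges DDX6 and the decapping proteins, by 0.43 and 0.51. DUSP6, an mRNA that 4EHP is known to repress, rose by 0.49 and 0.59. IFNB1, the other repressed mRNA listed, had at most 1 read in a library and was not tested.

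In DD the partners split, with 2 higher, 2 lower and 5 not passing (median -0.06), where 14.7% of all genes were higher and 14.8% lower. DCP1A, the activator of DCP2, fell from 2029.6 in Parental to 1133 (log2 fold change -0.84, limma adjusted p = 8.47e-06), and LSM14B fell from 2254 to 1438 (-0.65, adjusted p = 9.89e-05). EDC3 and EDC4 rose by 0.45 and 0.46. Between the overexpressions, DCP2 was higher with ZC3H7A (0.42) with overlapping libraries, LSM14A was higher (0.16) and CNOT1, the scaffold of the deadenylase, lower (-0.20). The DCP2 and LSM14A calls were lost without ZC3H7B replicate 1.

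**Figure D5:**
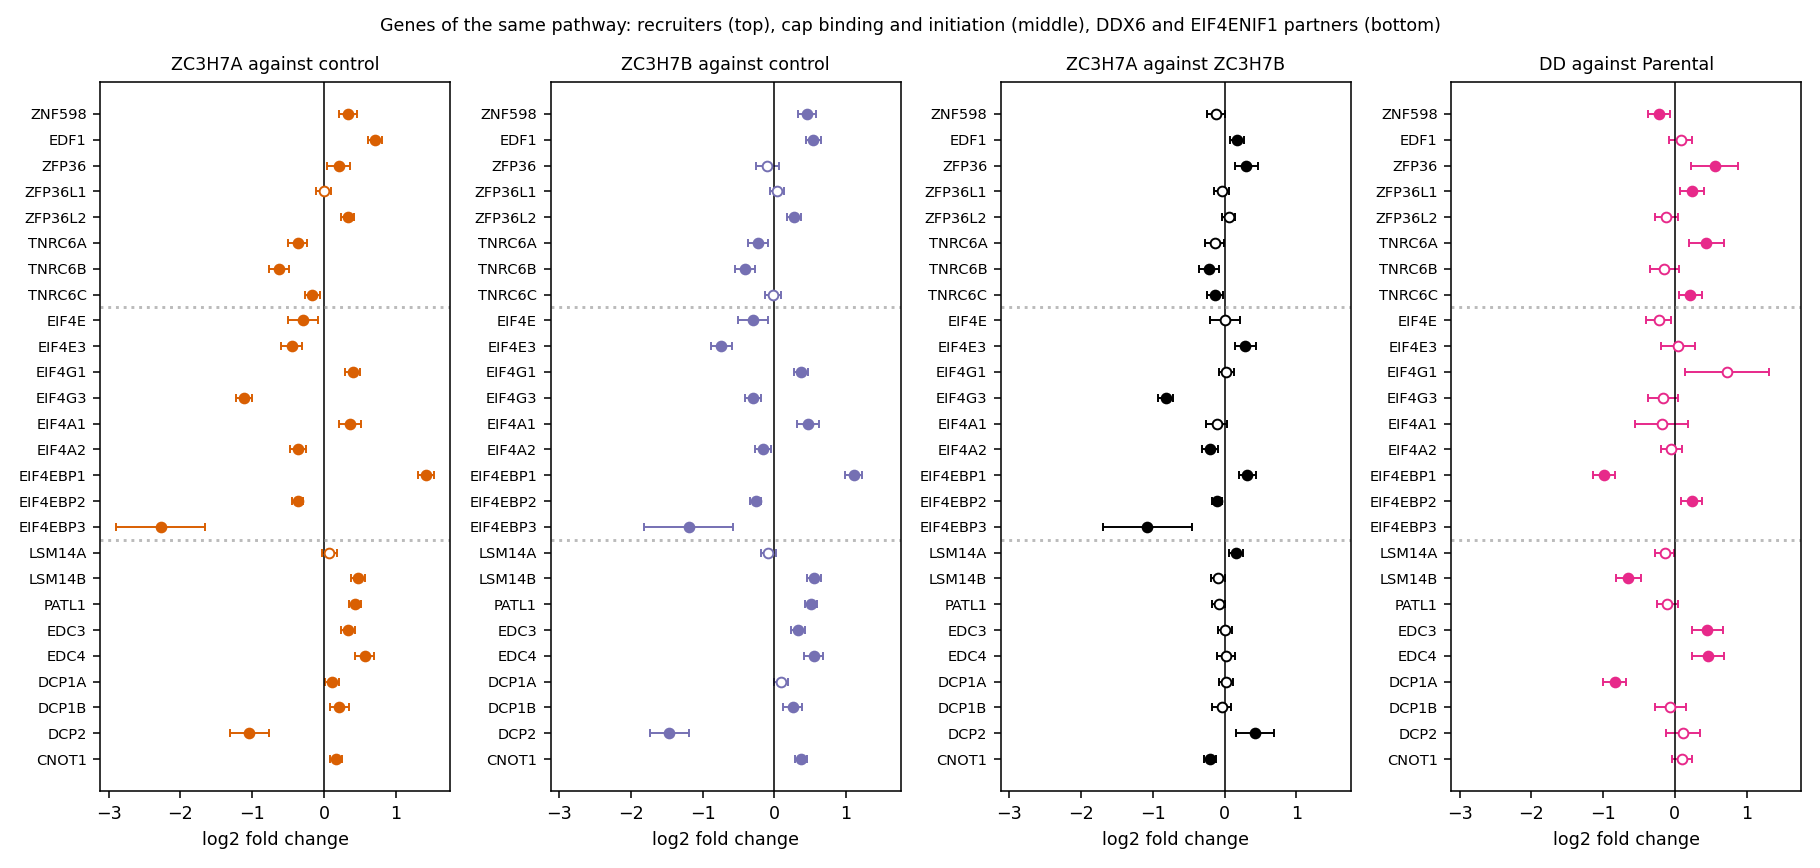
The log2 fold change (x axis) with its 95% interval from limma for recruiters (top), cap-binding and initiation factors (middle) and partners of DDX6 and 4E-T (bottom) in 4 comparisons (panels); filled points have an adjusted p under 0.05, and a missing point was not tested. EIF4EBP1 lies far to the right in both overexpressions (1.42 and 1.11) and to the left in DD (-0.98), and DCP2 to the left in both overexpressions (-1.04 and -1.46).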

How the data were processed

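RNA-seq of 15 HEK293 libraries was read from 1 deposited table. Its values are the authors' signal: gene counts divided by a size factor per library. The submitters' processing notes name STAR 2.7.10b, HTSeq, DESeq2 and hg19; annotation and strand setting are not given in the sources used here. In every library 100% of nonzero values were whole multiples of 1 read (within 0.01), so reads were recovered. Names were matched to GENCODE 29 (34273 current, 1310 older, 20162 unmatched, 28 date-like or repeated names left out of the match).

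limma 3.58.1 (R 4.3.3, trend, two-sided) was fitted to log2(value + 1) of genes with at least 10 in at least 3 libraries: the 9 overexpression libraries together, Parental and DD apart. Fold changes are on that scale. P-values were Benjamini-Hochberg adjusted over all genes tested, with 0.05 as the threshold. edgeR 4.0.16 and DESeq2 1.42.0 on recovered reads were alternatives, and edgeR's quasi-likelihood test called 13350, 12413, 7705 and 5479 genes (limma 13412, 12295, 7832 and 5448; ZC3H7A against control, ZC3H7B against control, ZC3H7A against ZC3H7B, DD against Parental). Scripts were tested on simulated data. The members, the lists and the rule for named genes (members in full; in each list the up to 4 called genes of largest fold change) were chosen with earlier results of these data known. Other alternatives were scaling, pseudocount, filter, replicate block, removal of the A+T trend and leaving out each library.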

Additional observations from a re-analysis of the deposited data

How the results depend on the processing

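GIGYF2 and EIF4E2 between the overexpressions, GIGYF2 and EIF4ENIF1 with ZC3H7A, EIF4E2 and EIF4ENIF1 with ZC3H7B, and EIF4E2 and DDX6 in DD kept direction and call under all 17 alternatives tried (16 in DD). Calls that moved are given as log2 fold changes with limma's adjusted p unless another tool is named; the cause was not tested. DESeq2 gave -0.13 (0.0523) for GIGYF1 and 0.12 (0.026) for DDX6 with ZC3H7A. With the A+T trend removed, calls were gained by EIF4E2 (-0.27) and DDX6 (0.58) with ZC3H7A, by GIGYF1 (-0.38) and DDX6 (0.46) with ZC3H7B, by GIGYF1 (-0.16), EIF4ENIF1 (0.13) and DDX6 (0.12) between the overexpressions and by EIF4ENIF1 (0.30) in DD, while ZNF598 (-0.084) and EIF4E3 (0.29) reversed with ZC3H7A. GIGYF2 with ZC3H7B lost its call with no filter (0.094, adjusted p 0.112). GIGYF1 with ZC3H7B passed when only the 2 groups were fitted (-0.12, 0.0047), and EIF4ENIF1 between the overexpressions at a filter of 100 (0.12, 0.0481).

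Leaving out 1 library, GIGYF2 with ZC3H7B ranged from 0.0834 to 0.107 and DDX6 there from -0.0102 to 0.018, reversed without ZC3H7B replicate 3 (-0.0078) or control replicate 3 (-0.0102). Between the overexpressions GIGYF1 ranged from -0.13 to -0.041 and EIF4ENIF1 from 0.10 to 0.17. In DD, GIGYF2 ranged from -0.056 to 0.25 (-0.019 without DD replicate 2, -0.042 without Parental replicate 1, -0.056 without Parental replicate 2), GIGYF1 from -0.13 to 0.10 and EIF4ENIF1 from 0.16 to 0.37. The genes called in DD ranged from 3563, without DD replicate 1, to 6803, without Parental replicate 3, beside 5448.

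With the replicate number as a block, the adjusted p of GIGYF2 with ZC3H7B was 0.0522 (0.094, limma). The block changed no other member's call and took the called recruiters in DD from 5 to 2 and the cap-binding and initiation genes from 2 to 1, losing EIF4EBP2. Deviations of same-numbered libraries correlated at -0.159, 0.114 and -0.0145 for ZC3H7A and control and at -0.0587, 0.128 and 0.00356 for ZC3H7B and control. For DD and Parental they correlated at -0.0134, -0.0463 and -0.273, so the numbers showed no pairing in these 3 comparisons. Between the overexpressions the values were 0.545, 0.075 and 0.722, and pairs with different numbers ran from -0.727 to 0.561. Libraries of these 2 groups thus shared part of their deviations, and whether their numbers pair them was not settled. The counts along chromosome 2 without single libraries and under other tests were added after seeing the data. GIGYF2 varied by a CV of 25.3% over the Parental libraries, on 733 to 1267 reads.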

Other observations

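The genes whose levels followed each member most closely were found by Pearson's r over the 15 libraries, on log2 values centred within each experiment, among 11394 genes. The r values are descriptions, since libraries of a group share their condition. For EIF4E2 they were DHDDS (r = 0.978), KAZN (0.978) and CAPZB (0.967), and all 3 lie on chromosome 1. Whether these 3 belong to a stretch of that chromosome that shifts together, like the run on chromosome 2, was not tested. DHDDS, which makes dolichol, stood at 0.52 with ZC3H7B and -0.55 in DD on the log2 scale, beside 0.42 and -0.43 for EIF4E2. For GIGYF2 they were ATXN2 (0.969), PLEKHA6 (0.968) and NCL (0.959). NCL, which encodes nucleolin, lies on chromosome 2, and ATXN2, an RNA-binding protein gene, on chromosome 12.

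For EIF4ENIF1 they were QRICH1 (0.980), MYO18A (0.977) and SRP68 (0.971), and 303 genes in all had an r above 0.9. DDX6 was followed by MCL1 (0.972), PDCL (0.963) and ARHGEF26 (0.950), with 38 genes above 0.9. GIGYF1 had 2 genes above 0.9, CUEDC1 (0.913) and SCAND2P (0.911), and next came CEP164 (0.884). Among the members, GIGYF1 and GIGYF2 had an r of 0.728 over the 15 libraries and 0.591 over the 9 of the overexpression experiment. Parental replicate 3 had the highest value of the depletion experiment for both genes, and r without it was not computed. For the chromosome 2 neighbours GIGYF2 and EIF4E2 r was 0.411 over the 15 libraries and 0.723 over the 9. For EIF4E2 and DDX6 it was -0.686 and -0.399.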
